A study of Homo sapiens with 12 samples.

Results

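The genes described here are 41 type I interferon stimulated genes, chosen by name as genes that type I interferon is known to induce and found by matching the Ensembl identifiers of the count matrix to the listed symbols. The list was chosen with earlier results of these data known, so its shares beside those of all genes are descriptions. All 41 were among the 57500 genes listed, and 39 had enough counts to be tested. IFITM2 and XAF1 did not. The cells were OE33, an established human esophageal adenocarcinoma line, and poly(A) RNA was sequenced from 3 libraries in each of 4 groups, which the study's design text calls independent biological replicates. The Parental group was untreated. The rABS group had survived 15 days of exposure for 20 minutes a day to bile salts at 200 µM and pH 5.5. The other two groups, shCtrl and shAPE1, were rABS survivors stably transduced after the exposure with a non-targeting short hairpin RNA or with a hairpin against APE1 (gene APEX1), an endonuclease that cuts DNA at abasic sites. All 3 exposed groups thus share the bile salt exposure, and the transduced pair also share the vector. No mock-treated group was part of the 12 libraries, 1 hairpin condition stands for APE1 depletion, and culture time cannot be told apart from exposure or transduction.

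Type I interferons bind the receptor formed by IFNAR1 and IFNAR2, which activates the kinases JAK1 and TYK2. These phosphorylate STAT2, which together with IRF9 forms part of a complex that binds interferon stimulated response elements in promoters. The induced genes encode proteins that block viral entry, translation and replication, that sense or degrade viral RNA, and that tag proteins with ISG15, and several of them feed back on the pathway. Epithelial and tumor cells, which carry the receptor, can express many of these genes.

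Promoter sequences are shown first because most of these genes share a recognisable letter pattern upstream of their start. The core of the interferon stimulated response element was searched on both strands as GAAA, any 2 bases and GAAA (TTTC, any 2 bases and TTTC on the other strand), in windows from 250 bases before to 50 bases after each RefSeq transcript start. Of the 33 members with such a window, 24 (72.7%) held a match, against 4.38% of the 27305 genes with a window. The STAT dimer pattern TTCNNNGAA was in 10 of 33 (30.3%) against 9.38% of all genes. A match is a description of the letters and not evidence of a bound site. The stretches below are RefSeq sequence of GRCh38.p14, 5′ to 3′ on the gene's own strand, each ending before the first annotated exon in the window, with response element matches in capitals. They are shown as examples of matches in different gene families, the first 8 from genes that rose with the APE1 hairpin and OAS3 from a gene that was not called in that comparison. Their positions and strands were IFIT1 at chr10:89392396-89392545 (plus), IFIT3 at chr10:89327747-89327893 (plus), RSAD2 at chr2:6877527-6877664 (plus), IFI27 at chr14:94110528-94110677 (plus), IFI6 at chr1:27672219-27672368 (minus), ISG15 at chr1:1013273-1013422 (plus), DDX60 at chr4:168318808-168318957 (minus), HERC5 at chr4:88456967-88457116 (plus), OAS3 at chr12:112938224-112938351 (plus). In IFIT1 and HERC5 the matches lie close together or overlap, and in ISG15 the capitals are 2 overlapping matches.
IFIT1: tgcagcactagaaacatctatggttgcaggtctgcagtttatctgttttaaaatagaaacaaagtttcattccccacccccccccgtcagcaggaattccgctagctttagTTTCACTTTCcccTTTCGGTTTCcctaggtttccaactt
IFIT3: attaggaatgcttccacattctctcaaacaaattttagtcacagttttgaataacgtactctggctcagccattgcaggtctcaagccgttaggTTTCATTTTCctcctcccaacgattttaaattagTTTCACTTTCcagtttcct
RSAD2: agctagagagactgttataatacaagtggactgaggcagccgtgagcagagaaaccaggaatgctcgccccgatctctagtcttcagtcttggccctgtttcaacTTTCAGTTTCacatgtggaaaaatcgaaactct
IFI27: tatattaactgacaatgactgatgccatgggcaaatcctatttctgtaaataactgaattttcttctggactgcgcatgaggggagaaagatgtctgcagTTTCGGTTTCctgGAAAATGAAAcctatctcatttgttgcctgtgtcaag
IFI6: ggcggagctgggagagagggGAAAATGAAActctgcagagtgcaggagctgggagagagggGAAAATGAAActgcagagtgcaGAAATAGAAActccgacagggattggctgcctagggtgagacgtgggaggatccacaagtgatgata
ISG15: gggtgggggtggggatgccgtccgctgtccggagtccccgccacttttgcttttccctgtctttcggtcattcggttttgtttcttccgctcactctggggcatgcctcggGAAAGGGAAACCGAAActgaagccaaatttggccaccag
DDX60: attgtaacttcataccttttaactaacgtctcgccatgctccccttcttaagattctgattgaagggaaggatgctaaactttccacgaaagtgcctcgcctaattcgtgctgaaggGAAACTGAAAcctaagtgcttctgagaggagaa
HERC5: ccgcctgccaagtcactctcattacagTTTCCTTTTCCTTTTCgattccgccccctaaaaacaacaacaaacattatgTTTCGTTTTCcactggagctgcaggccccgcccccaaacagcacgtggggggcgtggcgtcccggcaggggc
OAS3: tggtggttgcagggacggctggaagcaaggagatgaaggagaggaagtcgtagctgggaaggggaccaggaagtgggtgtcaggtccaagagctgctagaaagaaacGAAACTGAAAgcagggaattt

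Library totals ran from 15736087 to 23010377 counts, and levels are given as CPM, counts scaled by library size. APEX1 averaged 54.7 ± 1.99 CPM in Parental, 82.1 ± 2.28 in rABS, 59.8 ± 2.92 in shCtrl and 4.93 ± 0.819 in shAPE1 (SD, n = 3 each), so the hairpin's target was low in every library labelled shAPE1. The 6 epithelial markers summed to 13812 to 17282.4 CPM in Parental, 11447.3 to 13811.5 in rABS, 11295.4 to 12461.1 in shCtrl and 10161.2 to 10852.5 in shAPE1. KRT19 made up most of this sum, and single markers moved both ways. In rABS against Parental KRT8 (2.22-fold) and KRT18 (1.35-fold) were higher. CDH1 (1.25-fold), KRT19 (1.49-fold) and CLDN4 (1.80-fold) were lower there, and EPCAM was not called. In shAPE1 against shCtrl CDH1 and CLDN4 were higher, KRT8, KRT18 and KRT19 were lower, and EPCAM was not called. The 7 fibroblast markers summed to 22.5 to 29.5 CPM in Parental and to 3.47 to 9.46 in the other groups, and endothelial markers to at most 1.42. Nearly all of the fibroblast sum was COL1A1, which was 7.08-fold lower in rABS than Parental. The other fibroblast markers had at most 3 counts in a library. Of the endothelial markers, CLDN5 was 10.41-fold higher in rABS than Parental, from 0 to 3 counts per Parental library to 13 to 18 per rABS library. The 9 leukocyte markers summed to 9.50 to 12.3 CPM in Parental, 22.7 to 26.9 in rABS, 12.3 to 14.1 in shCtrl and 15.3 to 19.3 in shAPE1. Among these, PTPRC had at most 4 counts in a library and CD3E at most 1, while CD79A and CD14 made up most of the sum. CD79A was 4.25-fold higher in rABS than Parental (adjusted p = 2.53e-13) and 2.90-fold lower in shCtrl than rABS (adjusted p = 5.86e-10). CD14 was 2.05-fold higher in rABS than Parental (adjusted p = 4.09e-05) and 1.42-fold lower in shCtrl than rABS (adjusted p = 0.0343). LYZ was 1.84-fold lower in rABS than Parental (adjusted p = 0.0349) and 1.98-fold higher in shAPE1 than shCtrl (adjusted p = 0.0113). Of the plasmacytoid dendritic cell markers, CLEC4C had 0 counts in all 12 libraries. LILRA4 had at most 2 in a library and TCF4 at most 3. IL3RA had 3 to 21 and was not called in these comparisons, but it was called 2.94-fold lower in shAPE1 than Parental. Mitochondrial transcripts held 1.9% to 2.75% of counts in Parental, 2.69% to 3.65% in rABS, 2.62% to 3.3% in shCtrl and 3.13% to 4.22% in shAPE1. The part of these shares and of the marker sums in the results was not tested.

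The interferon stimulated genes were highest as a set in the cells carrying the APE1 hairpin. The shAPE1 group had the highest mean for 26 of 41 genes and the lowest for 0, whereas Parental had the lowest mean for 24. These counts include the untested IFITM2 and XAF1, with at most 8 counts per library, both highest in shAPE1 and lowest in Parental. They also include IFITM1 and TRIM22, highest in shAPE1 but not called against shCtrl. The same ranking was not made over all genes. When each gene's log2 CPM was centred on its mean over the 12 libraries, the median over the 39 tested genes was 0.42 to 0.47 in the 3 shAPE1 libraries. It was -0.36 to -0.31 in Parental, -0.04 to 0.14 in rABS and -0.19 to -0.07 in shCtrl. All 3 shAPE1 libraries lay above the other 9, with 36, 33 and 33 of the 39 genes above their own mean. These medians and counts were not made over all genes either.

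**Figure D1:**
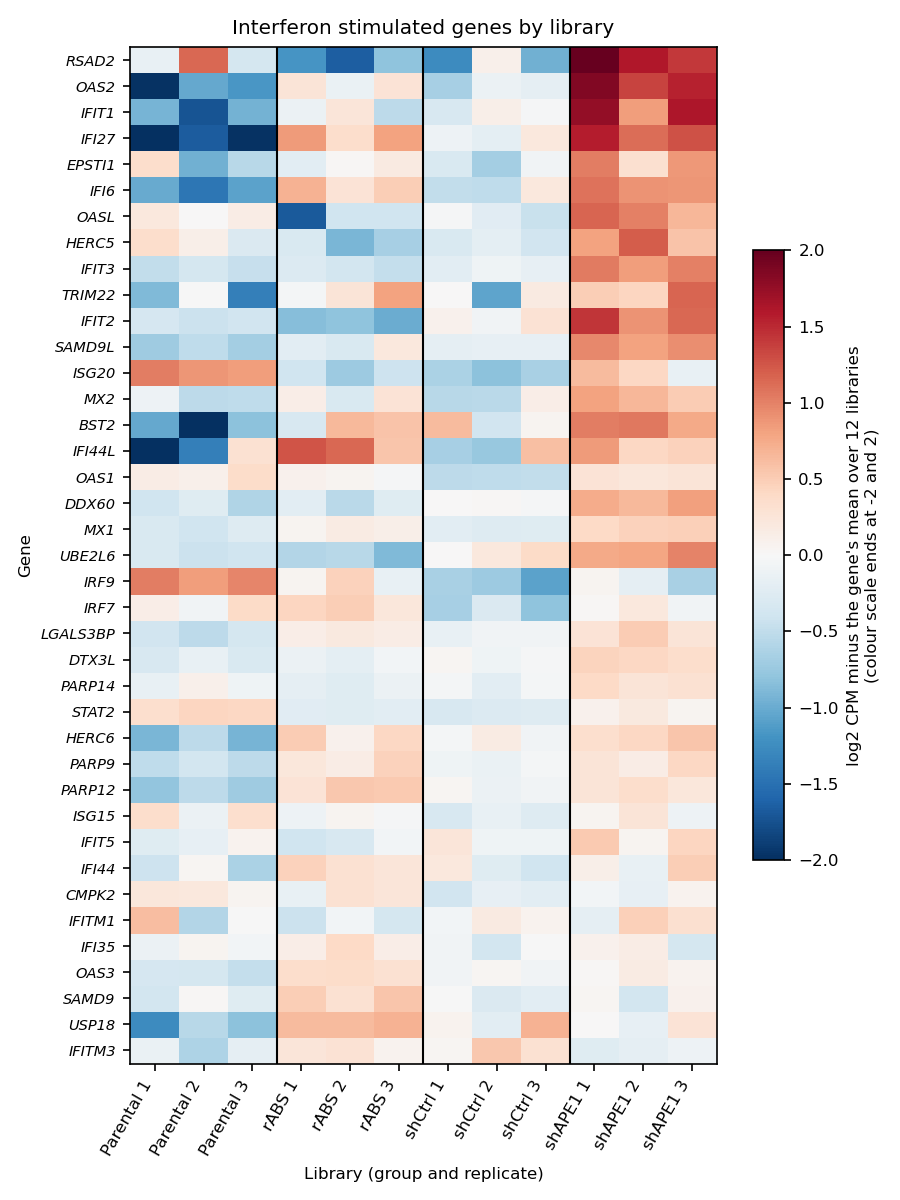
Each row is a tested interferon stimulated gene, ordered by its change between shAPE1 and shCtrl, and each column a library; colour is log2 CPM minus the gene's mean over the 12 libraries. Most rows are red in the 3 shAPE1 columns, where the library medians were 0.42 to 0.47.

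Levels per kilobase of annotated exon, which allow genes to be compared, spanned a wide range. LGALS3BP, a secreted glycoprotein, was the most abundant in shAPE1 at 212 CPM per kilobase, followed by DTX3L at 41.5, ISG15 at 26.9, IFITM3 at 26.3, UBE2L6 at 26.1 and PARP14 at 23.1. The least abundant there were XAF1 at 0.0624, IFI44L at 0.101 and IFITM2 at 0.123 CPM per kilobase. The untested pair stayed low in all groups, with IFITM2 at 0 to 0.281 CPM and XAF1 at 0 to 0.450 CPM. A Spearman correlation of -0.55 was found over the 39 genes between average log2 CPM and the log2 change between shAPE1 and shCtrl. The average was over all 12 libraries and not scaled by exon length. It is a description over genes that share the same libraries, and the larger fold changes sat among the genes with lower CPM.

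Survivors of repeated exposure (rABS) were compared with Parental to see what differed after the exposure. Several antiviral effector genes were higher in the survivors, led by IFI27, IFI44L, BST2 and IFI6, while RSAD2, ISG20, OASL and HERC5 and the transcription factor genes STAT2 and IRF9 were lower. In all, 17 of 39 tested genes rose and 8 fell by edgeR's quasi-likelihood test at a Benjamini-Hochberg adjusted p under 0.05, against 29.9% of all 15805 genes tested in each direction. The members' shares were 43.6% higher and 20.5% lower, and their median log2 change was 0.40 against -0.01 over all genes. Among the called genes 9 rose at least 2-fold, against 10.1% of all genes, and 2 fell at least 2-fold, against 9.31%. The libraries of the groups did not overlap for 18 genes higher in rABS and 9 lower, against 31.5% and 31.6% of all genes. In these bulk libraries fewer expressing cells and less RNA per cell cannot be told apart.

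IFI27, a small membrane protein, had 0.277, 0.468 and 0.354 CPM in Parental and 3.19, 2.21 and 3.08 in rABS. The groups did not overlap, and the rise was 7.40-fold (log2 2.89 ± 0.33, SE; adjusted p = 5.96e-09). These levels rested on 4 to 10 counts per Parental library. IFI6, an endoplasmic reticulum protein that limits flavivirus replication, went from 1.11, 0.795 and 1.06 to 3.87, 2.85 and 3.33 CPM. All rABS libraries were higher, by 3.43-fold (adjusted p = 1.40e-06).

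BST2, or tetherin, which holds budding virions at the cell surface, had 0.346, 0.0936 and 0.413 CPM in Parental against 0.626, 1.34 and 1.26 in rABS. Each rABS library was above each Parental one, a 3.92-fold rise (adjusted p = 0.00150) from 2 to 7 counts per Parental library. IFI44L, an effector whose name reflects its similarity to IFI44, had 0, 0.187 and 0.826 CPM in Parental and 1.71, 1.57 and 1.01 in rABS. It rose 4.11-fold (log2 2.04 ± 0.58; adjusted p = 0.00298) from 0 to 14 counts per Parental library, and without Parental replicate 3, the highest of them, the log2 change was 3.63. OAS2, which makes 2′-5′-linked oligoadenylates in response to double-stranded RNA, went from 0.554, 1.17 and 1.06 to 3.02, 2.27 and 3.03 CPM, a 2.89-fold rise (adjusted p = 2.06e-05).

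IFIT1, which binds viral RNA lacking cap methylation, had 1.38, 0.749 and 1.36 CPM in Parental and 2.51, 3.26 and 1.87 in rABS, with no overlap and a 2.23-fold rise (adjusted p = 0.00173). PARP12, a mono-ADP-ribosyltransferase, went from 29.1, 34.8 and 30.7 to 60.9, 73.3 and 72.3 CPM, or 2.18-fold higher (adjusted p = 1.56e-12). USP18, the protease that removes ISG15 and dampens signaling at IFNAR2, was at 1.32, 2.20 and 1.83 CPM in Parental and 5.18, 5.18 and 5.40 in rABS. The USP18 groups were far apart relative to their spread, with a 2.88-fold rise (adjusted p = 1.81e-06). The remaining rises, from 1.36- to 2.17-fold, were in HERC6, PARP9, OAS3, SAMD9, IFI44, LGALS3BP, SAMD9L, IFITM3 and MX1.

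Of the genes that fell, RSAD2, or viperin, a radical enzyme that makes a chain-terminating nucleotide, had 0.692, 1.87 and 0.590 CPM in Parental and 0.285, 0.175 and 0.403 in rABS. It was 3.68-fold lower (log2 -1.88 ± 0.53; adjusted p = 0.00292) on 3 to 8 counts per rABS library. Parental replicate 2 stood above the other two, and without it the log2 change was -1.11 and the adjusted p 0.112. ISG20, an exonuclease, had 8.72, 7.86 and 7.61 CPM in Parental and 3.19, 2.501 and 3.13 in rABS, a 2.73-fold fall with no overlap (adjusted p = 1.06e-07). OASL, an OAS relative without synthetase activity, went from 3.88, 3.37 and 3.72 to 0.968, 2.501 and 2.52 CPM, 1.81-fold lower (adjusted p = 0.00443). Replicate 1 of rABS was the low one, and without it the log2 change was -0.53 with an adjusted p of 0.0627.

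HERC5, the main ligase that attaches ISG15 to proteins, had 3.39, 2.85 and 2.12 CPM in Parental and 2.11, 1.34 and 1.61 in rABS, 1.64-fold lower (adjusted p = 0.0180). This call was lost without Parental replicate 1 (log2 -0.55), rABS replicate 2 (-0.58) or rABS replicate 3 (-0.68). STAT2 had 54.1, 57.8 and 56.8 CPM in Parental and 36.3, 36.3 and 36.8 in rABS, a 1.54-fold fall with well separated groups (adjusted p = 4.71e-08). IRF9, its DNA-binding partner, fell from 4.78, 4.21 and 4.66 to 2.39, 3.20 and 2.07 CPM, 1.78-fold (adjusted p = 0.00281). IRF9 shares 48.4% of its exon bases with a read-through gene on the same strand, and its 21 to 90 counts per library may depend on how shared reads were assigned. IFIT2 fell 1.42-fold (adjusted p = 0.0104) and UBE2L6 1.23-fold (adjusted p = 0.0211), the latter not called without Parental replicate 1 (log2 -0.23) or rABS replicate 3 (-0.19).

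The remaining 14 genes were not called. IRF7, the factor that amplifies interferon production, had 23.4, 20.2 and 27.8 CPM in Parental and 28.9, 30.1 and 25.0 in rABS, and the groups overlapped (log2 0.24, 95% interval -0.01 to 0.49; adjusted p = 0.0994). Without Parental replicate 3 the IRF7 log2 change was 0.37 (adjusted p = 0.0198), and without rABS replicate 3 it was 0.32 (adjusted p = 0.0466). IFITM1 (log2 -0.34) and TRIM22 (1.21), OAS1 (-0.17), ISG15 (-0.23) and DTX3L (0.14) passed the threshold only when Parental replicate 2 was left out, at -0.62, 1.99, -0.22, -0.37 and 0.19.

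**Figure D2:**
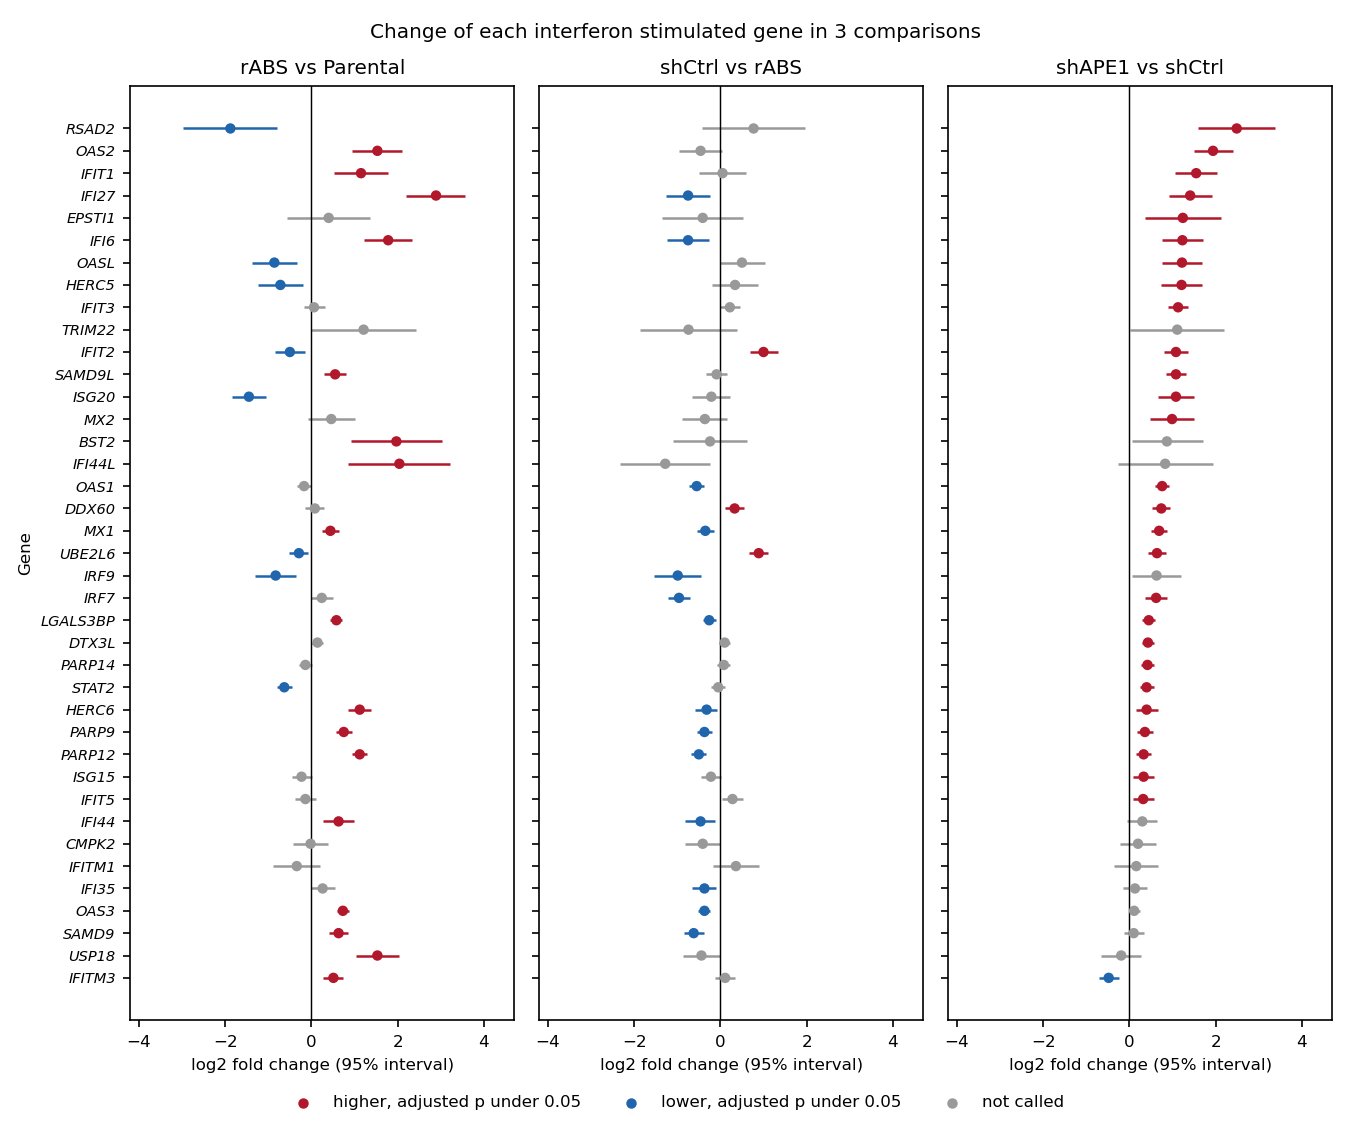
Points are log2 fold changes and lines 95% intervals of the 39 tested genes in rABS against Parental, shCtrl against rABS and shAPE1 against shCtrl, with red for higher and blue for lower at an adjusted p under 0.05. The left panel holds 17 red and 8 blue genes, the middle one 3 and 14, and the right one 27 and 1.

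The control hairpin group was compared with rABS to see what transduction and the culture after it changed. Here the set moved down: 14 of 39 genes fell and 3 rose, against 18.6% and 17.9% of all genes tested. The members' shares were 35.9% lower and 7.69% higher, with a median log2 change of -0.32 against 0.02 over all genes. This comparison shares the rABS libraries with the first and the shCtrl libraries with the next, so its values stand beside theirs and are not separate evidence. Of its called genes 1 rose and 0 fell at least 2-fold, against 3.32% and 1.53% of all genes. The groups did not overlap for 5 higher and 16 lower genes, against 24.1% and 24.3%.

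IRF7 fell from 28.9, 30.1 and 25.0 CPM in rABS to 13.5, 17.4 and 12.2 in shCtrl, 1.94-fold (log2 -0.96 ± 0.13; adjusted p = 3.98e-07), with no overlap. IRF9 fell from 2.39, 3.20 and 2.07 to 1.43, 1.36 and 1.05 CPM, 1.98-fold (adjusted p = 0.00379), also without overlap. STAT2 was at 34.2, 35.3 and 35.8 CPM in shCtrl, and its change was not called (log2 -0.05, 95% interval -0.22 to 0.11). USP18 had 3.49, 2.84 and 5.38 CPM in shCtrl and overlapped rABS (log2 -0.44; adjusted p = 0.112). That change was called without shCtrl replicate 3, the highest of its group (log2 -0.74; adjusted p = 0.0161).

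OAS1, an oligoadenylate synthetase, fell from 50.9, 49.4 and 47.0 to 33.3, 33.6 and 33.7 CPM, 1.46-fold with no overlap (adjusted p = 4.21e-06). SAMD9, a growth-restraining antiviral protein, fell from 136, 119 and 141 to 96.0, 79.2 and 83.3 CPM, 1.53-fold (adjusted p = 0.0001). IFI27 fell to 1.59, 1.49 and 1.99 CPM and IFI6 to 1.64, 1.61 and 2.74 CPM, each 1.68-fold (adjusted p = 0.0209 and 0.0144). Both calls depended on single libraries. The IFI27 log2 change was -0.66 to -0.71, with the call lost, without rABS replicate 1 or 3 or shCtrl replicate 1 or 2. For IFI6 it was -0.61 to -0.64, with the call lost, without rABS replicate 1 or shCtrl replicate 1 or 2. The other falls, from 1.19- to 1.42-fold, were in PARP12, IFI44, OAS3, IFI35, PARP9, MX1, HERC6 and LGALS3BP. Of these, IFI44 was not called without rABS replicate 1 or 2 or shCtrl replicate 2 or 3 (log2 -0.35 to -0.48). IFI35 was not called without replicate 2 of either group (-0.28 and -0.27), nor HERC6 without replicate 1 or 3 of either group (-0.24 to -0.29).

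Of the rises, IFIT2, an RNA-binding translation inhibitor, went from 4.44, 4.60 and 4.03 to 8.61, 7.68 and 9.95 CPM, 2.01-fold with no overlap (adjusted p = 7.91e-06). UBE2L6, the enzyme that conjugates ISG15 together with HERC5, went from 21.1, 21.6 and 17.1 to 31.9, 36.9 and 41.5 CPM, 1.85-fold (adjusted p = 6.71e-08). DDX60, a helicase linked to viral RNA sensing, went from 20.3, 16.2 and 19.9 to 23.6, 24.1 and 23.3 CPM, 1.26-fold (adjusted p = 0.0144). Without rABS replicate 2 the DDX60 log2 change was 0.24 and the adjusted p 0.124.

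The APE1 hairpin was compared with the control hairpin to see what APE1 depletion changed in the survivors. Genes of nearly every antiviral class were higher in shAPE1: 27 of 39 rose and 1, IFITM3, fell, against 17.8% and 18.8% of all genes tested. The largest rises were in RSAD2, OAS2, IFIT1 and IFI27. The members' shares were 69.2% higher and 2.56% lower, with 37 of 39 log2 changes above 0 and a median of 0.64 against -0.02 over all genes. At least 2-fold rises numbered 12, against 1.41% of all genes, and falls of that size 0, against 3.01%. The libraries of the 2 groups did not overlap for 30 genes that were higher, against 22.6% of all genes, and for 1 that was lower, against 24.3%.

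**Figure D3:**
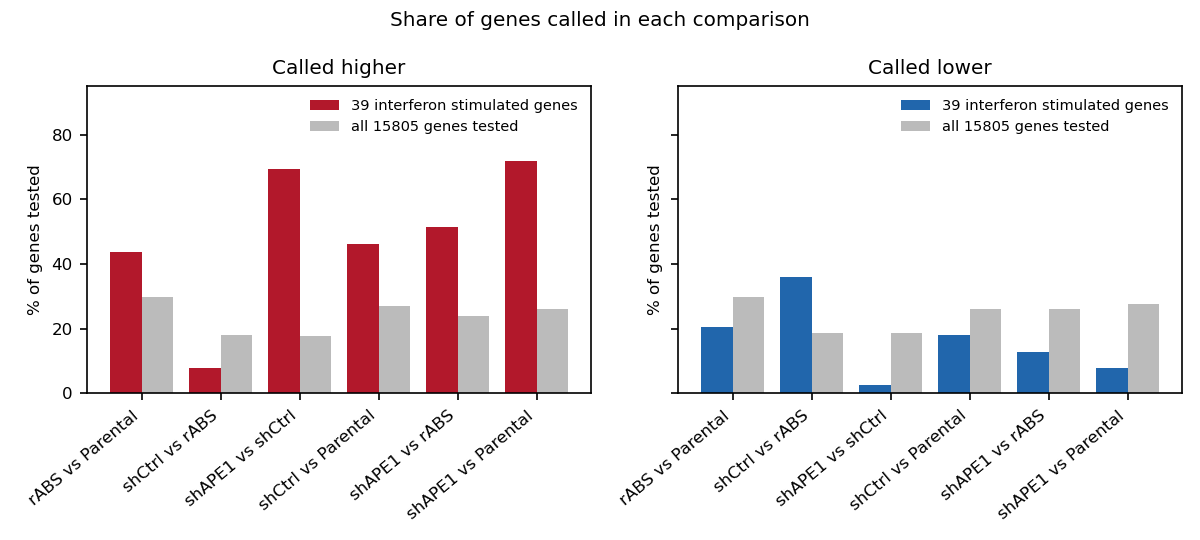
Bars give the percent of the 39 tested interferon stimulated genes (coloured) and of all 15805 genes tested (grey) called higher, left, and lower, right, in each comparison. The share higher in shAPE1 against shCtrl was 69.2% beside 17.8%, and the share lower was 2.56% beside 18.8%.

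All 4 IFIT genes, which bind foreign RNA and form complexes with each other, rose. IFIT1 had 2.17, 2.97 and 2.69 CPM in shCtrl and 9.49, 4.95 and 8.56 in shAPE1, with replicate 2 the lowest of its group and still above all controls. The rise was 2.92-fold (log2 1.55 ± 0.24; adjusted p = 3.40e-06). IFIT2 went from 8.61, 7.68 and 9.95 to 22.1, 15.1 and 18.1 CPM, 2.12-fold (adjusted p = 1.54e-07). IFIT3, the partner that stabilises IFIT1, went from 11.4, 12.4 and 11.7 to 27.2, 23.6 and 26.6 CPM, 2.18-fold (adjusted p = 6.21e-10). For these 3 genes the groups did not overlap. IFIT5 had 31.5, 25.0 and 25.0 against 38.0, 27.6 and 35.8 CPM, which overlapped (1.25-fold; adjusted p = 0.0339). Its call was lost without shCtrl replicate 2 or 3 or shAPE1 replicate 1 or 3, at log2 changes of 0.22 to 0.27. The genes lie in 1 cluster on chromosome 10, within 89283694 to 89421001 of GRCh38.

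Of the OAS genes, 3 of 4 rose and by unequal amounts. OAS2 had 1.53, 2.29 and 2.19 CPM in shCtrl and 9.34, 6.53 and 7.44 in shAPE1, with every shAPE1 library well above the controls (log2 1.94 ± 0.22; adjusted p = 1.71e-08). OASL went from 3.28, 2.84 and 2.44 to 7.63, 6.81 and 5.38 CPM, 2.33-fold (adjusted p = 5.41e-05). OAS1 went from 33.3, 33.6 and 33.7 to 57.9, 55.6 and 57.1 CPM, 1.70-fold (adjusted p = 7.60e-09), again with no overlap. OAS3, which lies between OAS1 and OAS2 on chromosome 12, had 130, 140 and 130.5 CPM in shCtrl and 138, 152 and 143 in shAPE1. Those groups overlapped, and the log2 change was 0.11 (95% interval -0.02 to 0.25; adjusted p = 0.202).

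RSAD2 showed the largest fold change of the 39. It had 0.264, 0.849 and 0.348 CPM in shCtrl and 3.67, 2.59 and 2.25 in shAPE1, on 5, 20 and 7 counts against 73, 46 and 36. The groups were widely separated, at 5.61-fold (log2 2.49 ± 0.44; adjusted p = 2.55e-05). Without shCtrl replicate 2, the highest control, the log2 change was 3.18. CMPK2, a mitochondrial nucleotide kinase whose gene starts next to RSAD2 on the opposite strand of chromosome 2, had 2.59, 3.01 and 2.94 against 3.27, 3.04 and 3.56 CPM. CMPK2 was not called (log2 0.20, 95% interval -0.22 to 0.62). MX1, a dynamin-like GTPase that blocks viral nucleocapsids, rose 1.62-fold (adjusted p = 4.48e-07), from 18.8, 18.1 and 18.2 to 28.7, 30.0 and 30.3 CPM. Its relative MX2 rose 1.98-fold (adjusted p = 0.00189), from 1.59, 1.61 and 2.64 to 4.27, 3.83 and 3.44 CPM.

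**Figure D4:**
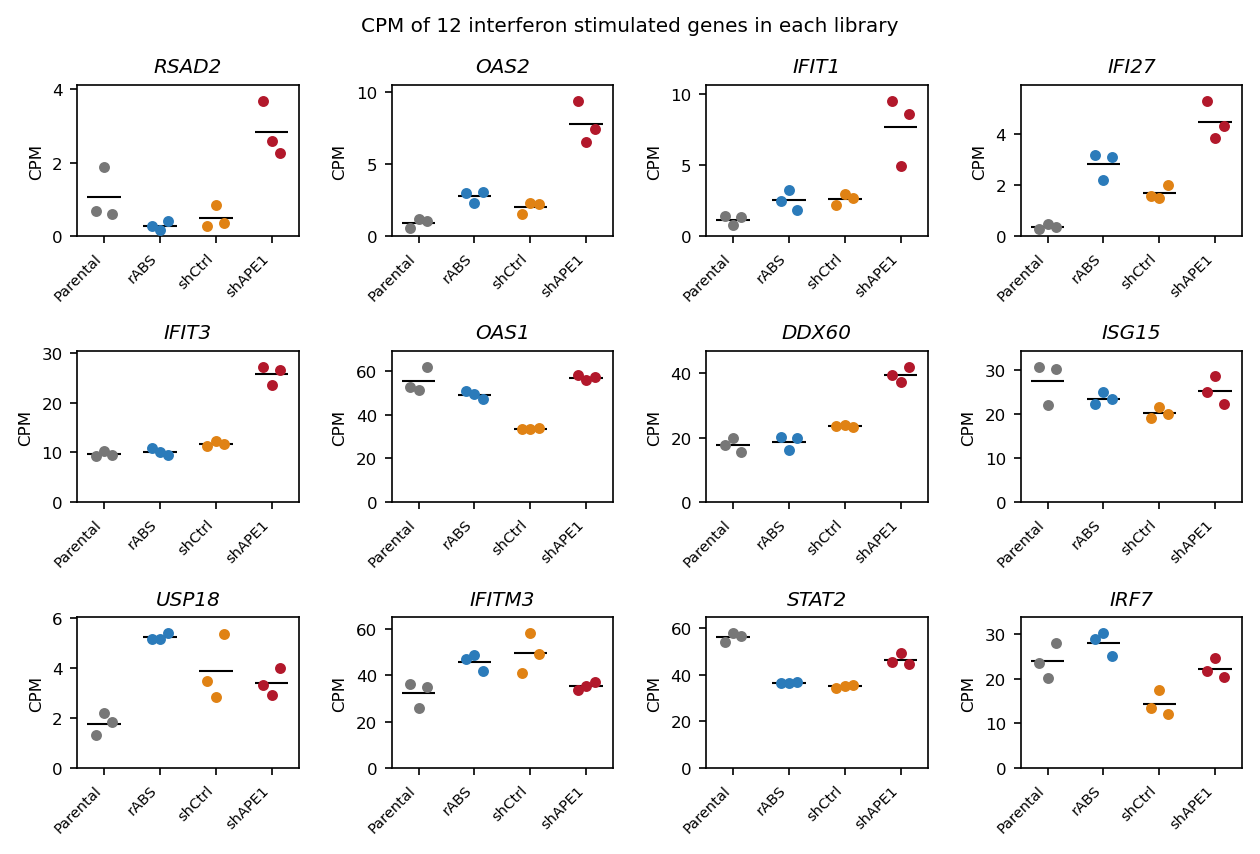
Each panel gives CPM of 1 interferon stimulated gene in the 12 libraries, with points for libraries and a bar for the group mean, on its own axis from 0. RSAD2, OAS2, IFIT1, IFI27, IFIT3 and DDX60 have all 3 shAPE1 points on top, whereas IFITM3 is higher in rABS and shCtrl.

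In the ISG15 system 4 of 5 genes rose. HERC5 went from 2.11, 2.29 and 1.99 to 4.67, 6.24 and 3.94 CPM, 2.32-fold (adjusted p = 9.16e-05), and UBE2L6 from 31.9, 36.9 and 41.5 to 53.9, 55.0 and 63.2 CPM, 1.56-fold (adjusted p = 4.44e-06). Neither gene's groups overlapped. ISG15, the ubiquitin-like modifier, had 19.1, 21.5 and 20.0 against 24.9, 28.7 and 22.4 CPM, 1.25-fold (adjusted p = 0.0253). The ISG15 call was lost without shCtrl replicate 1 or 3 or shAPE1 replicate 1 or 2, at log2 changes of 0.23 to 0.34. HERC6 rose 1.32-fold (adjusted p = 0.0104), a call lost without shCtrl replicate 3 (log2 0.36) or shAPE1 replicate 3 (0.34). USP18, the deconjugating enzyme, had 3.49, 2.84 and 5.38 CPM in shCtrl and 3.32, 2.93 and 4.001 in shAPE1, and was not called (log2 -0.19, 95% interval -0.65 to 0.27).

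The 4 genes grouped under ADP-ribosylation were PARP9, PARP12, PARP14 and DTX3L, a ubiquitin ligase that pairs with PARP9. All 4 rose by small amounts with no overlap between the groups. DTX3L was 1.35-fold higher (adjusted p = 4.21e-06), PARP14 1.34-fold (adjusted p = 2.33e-05), PARP9 1.29-fold (adjusted p = 0.00160) and PARP12 1.25-fold (adjusted p = 0.00326). DTX3L and PARP9 are divergent neighbours on chromosome 3 and share 217 exon bases on opposite strands.

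Among the membrane restriction factors none of the 3 tested genes was called higher. IFITM3, which hinders fusion of virions in endosomes, had 40.8, 58.1 and 49.2 CPM in shCtrl and 33.8, 35.3 and 37.2 in shAPE1. Every shAPE1 library was lower, by 1.40-fold (log2 -0.48 ± 0.11; adjusted p = 0.000991). An antisense gene covers 21.3% of IFITM3's exon bases. BST2 had 1.32, 0.594 and 0.846 against 1.76, 1.80 and 1.44 CPM, which did not overlap but was not called (log2 0.87; adjusted p = 0.0919). In a fit of the 6 hairpin libraries alone its log2 change was 0.89 with an adjusted p of 0.0484. IFITM1, which shares 32.5% of its exon bases with IFITM2, had 2.69, 3.18 and 2.94 against 2.46, 3.94 and 3.50 CPM and was not called (log2 0.16).

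Of 12 tested effectors outside these families 7 rose. IFI27 went from 1.59, 1.49 and 1.99 to 5.27, 3.83 and 4.31 CPM, 2.66-fold (adjusted p = 2.42e-05), and IFI6 from 1.64, 1.61 and 2.74 to 5.07, 4.44 and 4.44 CPM, 2.34-fold (adjusted p = 8.73e-05). Both were clear of the controls in every library. EPSTI1, a gene found through epithelial and stromal cell contact, had 0.581, 0.424 and 0.697 against 1.61, 0.956 and 1.44 CPM, 2.36-fold higher (adjusted p = 0.0235). The EPSTI1 levels rested on 10 to 32 counts, and the call was lost without shCtrl replicate 1 or 2 or shAPE1 replicate 1 or 3, at log2 changes of 1.05 to 1.26. ISG20 went from 2.69, 2.33 and 2.64 to 6.58, 5.68 and 3.81 CPM, 2.12-fold (adjusted p = 5.89e-05).

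DDX60 went from 23.6, 24.1 and 23.3 to 39.5, 37.2 and 41.9 CPM, 1.67-fold (adjusted p = 5.70e-07), and LGALS3BP rose 1.36-fold (adjusted p = 4.11e-06). SAMD9L rose 2.11-fold (adjusted p = 2.98e-09), from 15.5, 15.7 and 15.6 to 34.4, 30.7 and 33.6 CPM. Its neighbour on chromosome 7, SAMD9, had 96.0, 79.2 and 83.3 against 99.0, 74.7 and 103 CPM, overlapped and was not called (log2 0.10, 95% interval -0.13 to 0.33). IFI35, IFI44, IFI44L and TRIM22 were not called, with log2 changes of 0.13, 0.30, 0.83 and 1.11. IFI44 was called without shCtrl replicate 1 (log2 0.49; adjusted p = 0.0413).

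The transcription factor genes rose or were not called. STAT2 went from 34.2, 35.3 and 35.8 to 45.4, 49.2 and 44.5 CPM, 1.32-fold with no overlap (adjusted p = 0.000166). IRF7 went from 13.5, 17.4 and 12.2 to 21.7, 24.6 and 20.3 CPM, 1.54-fold with no overlap (adjusted p = 0.000212). IRF9 had 1.43, 1.36 and 1.05 against 2.41, 2.03 and 1.44 CPM. Each shAPE1 library was above each control, yet the IRF9 change was not called (log2 0.63; adjusted p = 0.0740), except without shAPE1 replicate 3, at 0.80 (adjusted p = 0.0329).

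Genes that rose in this comparison were found with and without the promoter pattern. Of the 24 tested genes with a response element match 17 rose and 1 fell, with a median log2 change of 0.57, and of the 8 tested genes with a window but no match 5 rose, with a median of 0.52. The remaining 7 had no window, and 5 of them rose. Over all genes tested 17.8% rose and 18.8% fell in this comparison. In rABS against Parental 13 of the 24 rose and 3 fell, against 2 and 3 of the 8 without a match. Over all genes tested the share there was 29.9% in each direction. These counts are descriptions over few genes, and no difference between them was tested.

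The comparisons of rABS with Parental and of shAPE1 with shCtrl share no library, and the genes fell into several patterns across them. Higher in both were 10 of the 39 tested (25.6%), against 5.07% of all genes tested: HERC6, IFI27, IFI6, IFIT1, LGALS3BP, MX1, OAS2, PARP12, PARP9 and SAMD9L. Of these, HERC6, IFI27, IFI6, LGALS3BP, MX1, PARP12 and PARP9 were called lower in shCtrl than rABS, between the 2 rises. PARP9 and PARP12 had their highest mean in rABS and not in shAPE1. Lower in rABS than Parental and higher in shAPE1 than shCtrl were 7 (17.9%), against 7.92% of all genes tested: HERC5, IFIT2, ISG20, OASL, RSAD2, STAT2 and UBE2L6. A further 10 (25.6%) were not called in rABS against Parental and rose with the APE1 hairpin, against 4.78% of all genes tested: DDX60, DTX3L, EPSTI1, IFIT3, IFIT5, IRF7, ISG15, MX2, OAS1 and PARP14. IFITM3 had the opposite order, 1.42-fold higher in rABS (adjusted p = 0.000319) and lower in shAPE1. CMPK2, IFITM1 and TRIM22 were called in none of the 3 comparisons.

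Set against rABS cells without a vector, shAPE1 cells had 20 of 39 genes higher (51.3%) and 5 lower (12.8%). Over all genes tested these shares were 23.8% and 26.2%. The members' median log2 change was 0.47. At least 2-fold were 9 rises and 0 falls, against 5.38% and 5.64%, and the groups did not overlap for 23 higher and 5 lower genes, against 26.8% and 29.2%. RSAD2 was 9.57-fold higher (adjusted p = 1.2e-06), IFIT2 4.25-fold, OASL 3.30-fold, IFIT1 3.04-fold and HERC5 2.93-fold. The lower genes were USP18 (1.54-fold), SAMD9 (1.43-fold), IFITM3 (1.29-fold), IRF7 (1.26-fold) and OAS3 (1.2-fold). So IRF7 was higher than in shCtrl but lower than in rABS, while OAS1, at 56.9 ± 1.15 CPM (SD, n = 3), was above both shCtrl and rABS (1.16-fold; adjusted p = 0.0312). Against rABS, the calls of 3 of these genes were lost when certain single libraries were left out. That of USP18 was lost without shAPE1 replicate 1 or 2 (adjusted p = 0.0541 and 0.0806). That of IRF7 was lost without rABS replicate 1 or 2 or shAPE1 replicate 1 or 3 (adjusted p = 0.0726 to 0.103), and that of OAS1 without any one of the rABS libraries or shAPE1 replicate 1 or 3 (adjusted p = 0.0502 to 0.125).

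Set against Parental, shAPE1 cells had 28 of 39 genes higher (71.8%) and 3 lower (7.69%), against 26.2% and 27.5% of all genes tested. The members' median log2 change was 0.84. At least 2-fold were 16 rises and 1 fall, against 7.47% and 7.40%. The groups did not overlap for 25 higher and 3 lower genes, against 28.0% and 29.2%. IFI27 was 11.7-fold higher (adjusted p = 3.48e-11), OAS2 8.09-fold, IFIT1 6.76-fold, BST2 6.06-fold and IFI6 4.76-fold. These genes had few counts per Parental library, at 4 to 10 for IFI27, 8 to 25 for OAS2 and 16 to 23 for IFIT1. BST2 had 2 to 7 there and IFI6 16 to 18. IRF9 (2.29-fold), ISG20 (1.49-fold) and STAT2 (1.21-fold) were lower, and the call of ISG20 was lost without shAPE1 replicate 3 (1.31-fold; adjusted p = 0.0802). In shCtrl against Parental 18 of 39 rose (46.2%) and 7 fell (17.9%), against 27.0% and 26.1% of all genes, with a median of 0.23. At least 2-fold were 6 rises and 3 falls, against 8.19% and 5.31%, and the groups did not overlap for 18 higher and 8 lower genes, against 29.9% and 28.7%. The 7 were IRF9 (3.54-fold), ISG20 (3.15-fold), RSAD2 (2.16-fold), OAS1 and IRF7 (each 1.65-fold), STAT2 (1.60-fold) and ISG15 (1.36-fold). For RSAD2 the groups overlapped, and its call was lost without Parental replicate 2 (1.27-fold lower; adjusted p = 0.626), without shCtrl replicate 1 (1.78-fold; adjusted p = 0.173) and without shCtrl replicate 3 (1.88-fold; adjusted p = 0.152), while without shCtrl replicate 2 it was 3.49-fold lower (adjusted p = 0.00853).

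The rest of the pathway was read from a list of 60 other genes, of which 51 were tested. The 9 listed ligand genes, IFNB1, IFNA1, IFNA2, IFNE, IFNK, IFNW1 and IFNL1 to IFNL3, had too few counts to test. Summed over 3 libraries they had 4 counts in Parental, 2 in rABS, 19 in shCtrl and 11 in shAPE1. IFNB1 had 0 in all 12 libraries. IFNL1 had 7 counts in shAPE1, 1 in shCtrl and 1 in rABS, levels at which no fold is given.

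Of the 51, 18 (35.3%) rose and 10 (19.6%) fell between shAPE1 and shCtrl, against 17.8% and 18.8% of all genes tested, so the share that fell was near that of all genes. IFNAR1 had 66.0, 52.2 and 53.7 CPM in shCtrl and 43.4, 44.2 and 46.0 in shAPE1, 1.29-fold lower with no overlap (adjusted p = 0.00206). IFNAR2 was not called (log2 -0.21). JAK1 had 272, 249 and 261 against 209, 247 and 209 CPM, 1.18-fold lower (adjusted p = 0.00917), and TYK2 was not called (log2 0.09). IL10RB and IFNLR1, the receptor chains for interferon lambda, were 1.30- and 1.28-fold higher (adjusted p = 0.000418 and 0.0245).

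STAT3 fell 2.00-fold (adjusted p = 1.62e-13), from 180, 173 and 185 to 91.6, 94.0 and 83.9 CPM. IRF1, an interferon induced factor that binds related elements, rose 1.57-fold (adjusted p = 6.28e-07), from 56.2, 74.2 and 60.02 to 95.7, 114 and 89.8 CPM. Of the inhibitors, SOCS3, a feedback inhibitor of cytokine receptors, fell 1.48-fold (adjusted p = 1.00e-05) and the phosphatase gene PTPN6 rose 1.23-fold (adjusted p = 0.00962).

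Of 34 sensors and effectors outside the 41 genes, 13 (38.2%) rose and 3 (8.82%) fell between shAPE1 and shCtrl, against 17.8% and 18.8% of all genes tested, with a median log2 change of 0.16. TNFSF10, the death ligand TRAIL, rose 2.98-fold (adjusted p = 2.12e-07), from 1.95, 2.12 and 2.34 to 7.43, 6.64 and 5.00 CPM. The cytosolic DNA sensor gene CGAS fell 1.63-fold (adjusted p = 3.21e-09), from 94.7, 86.5 and 92.9 to 58.1, 51.4 and 58.1 CPM. The RNA editing gene ADAR fell 1.24-fold (adjusted p = 0.000114).

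In rABS against Parental 9 of the 51 (17.6%) rose and 23 (45.1%) fell, against 29.9% of all genes tested in each direction. IL10RB fell 3.09-fold (adjusted p = 2.20e-17), IFNAR2 2.01-fold (adjusted p = 1.14e-09), JAK1 1.56-fold (adjusted p = 1.81e-09) and IRF1 2.71-fold (adjusted p = 5.16e-15). IFI16, a nuclear DNA sensor, fell 4.53-fold (adjusted p = 4.51e-18), from 62.8, 69.3 and 63.3 to 13.2, 15.9 and 14.1 CPM. TYK2 rose 1.56-fold (adjusted p = 1.00e-06) and APOL1 2.85-fold (adjusted p = 4.88e-19). IFNAR1 was not called (log2 0.02). In shCtrl against rABS 12 (23.5%) rose and 9 (17.6%) fell, near the 17.9% and 18.6% of all genes tested.

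**Figure D5:**
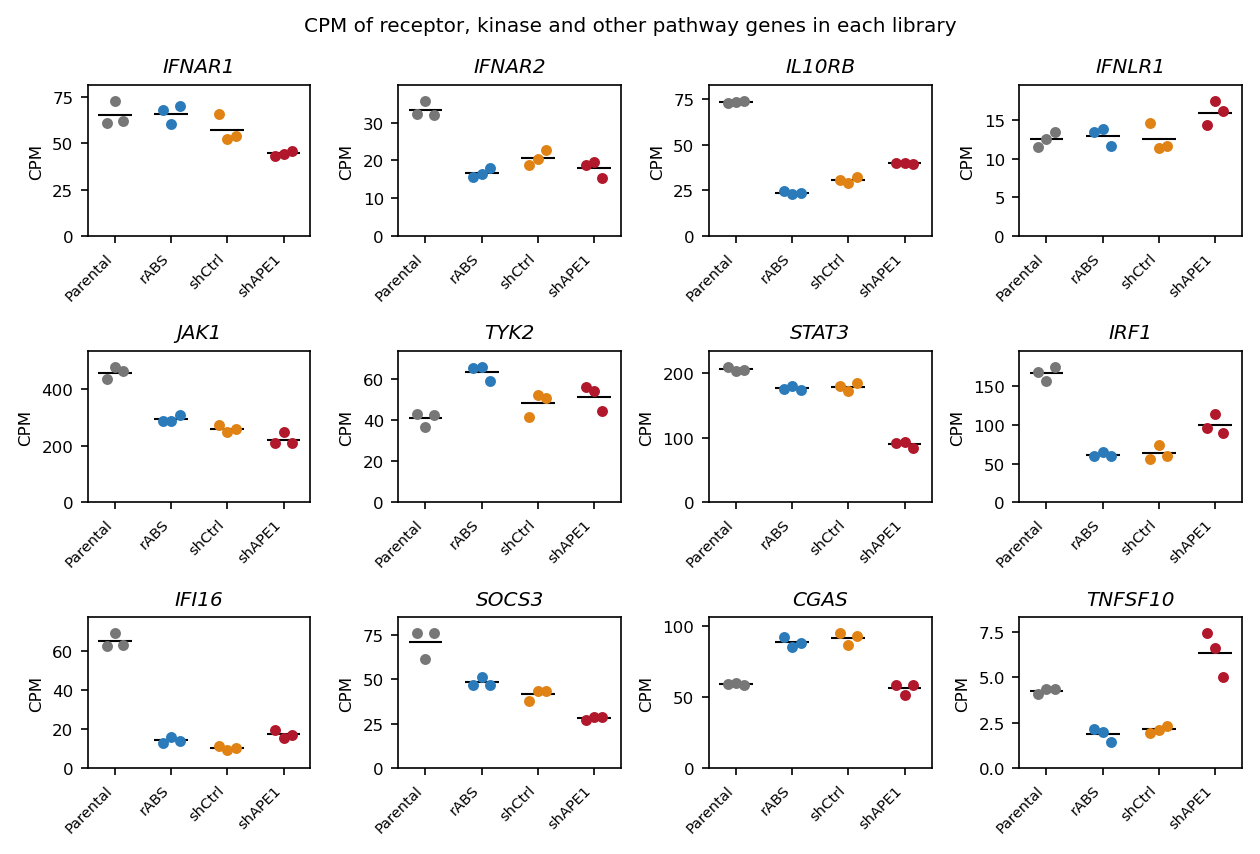
Each panel gives CPM of 1 receptor, kinase, transcription factor or other pathway gene in the 12 libraries, with points for libraries and a bar for the group mean, on its own axis from 0. STAT3, IFNAR1 and CGAS are lower in shAPE1 than in shCtrl, where IRF1 and TNFSF10 are higher, and IL10RB and IFNAR2 are highest in Parental.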

How the data were processed

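Poly(A) RNA of 12 OE33 libraries, 3 in each of 4 groups, was analysed from raw counts per gene deposited by the authors. Per the submitters' processing notes the tools were Trimmomatic 0.36, STAR 2.5.2b and featureCounts of Subread 1.5.2. Strandedness of the counting and the treatment of multi-mapping reads were not given in the sources used here. Symbols and positions came from GENCODE 29 (GRCh38), promoters from RefSeq. Genes were kept with filterByExpr (minimum count 10, minimum total 15), leaving 15805. Libraries were scaled with TMM and fitted together by edgeR's quasi-likelihood model with robust dispersion (edgeR 4.0.16, limma 3.58.1, R 4.3.3). P-values were adjusted by Benjamini-Hochberg over all genes tested and called under 0.05. Log2 CPM used a prior count of 2. The fit was tested on simulated data.

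The 41 genes, the pathway and marker lists and the comparisons were chosen with earlier results of these data known. Values in every library are given for STAT2, IRF9, IRF7 and USP18, for up to 8 largest rises and 6 largest falls per main comparison among called genes whose mean reached 1 CPM in either group, and for up to 5 genes that moved in opposite directions. Other genes given with values in every library were chosen after their values were seen. Alternatives were RLE and upper-quartile scaling, DESeq2 1.42.0, other filters, a replicate block, fits of 6 libraries, and leaving out each library. Some pathway genes are not reported here.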

Additional observations from a re-analysis of the deposited data

How the results depend on the processing

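Under other scalings, filters, DESeq2, fits of 6 libraries and a replicate block, the counts of interferon stimulated genes called stayed within 1.5 times of the values given, except the genes lower in shAPE1 against rABS. These numbered 5 in the report and 3 by DESeq2, and 3 to 5 when a library was left out. Leaving out 1 library gave 17 to 19 higher and 6 to 10 lower in rABS against Parental, 24 to 26 higher and 1 lower in shAPE1 against shCtrl, and 2 to 4 higher and 10 to 14 lower in shCtrl against rABS. Of the called genes 21 of 25, 24 of 28 and 11 of 17 in these comparisons, in that order, were called in every setting.

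Same-numbered libraries did not deviate together (correlations of -0.167 to 0.109), so the numbers were not taken as pairs. The replicate block gave 17 higher and 8 lower in rABS against Parental, 27 and 1 in shAPE1 against shCtrl, and 3 and 14 in shCtrl against rABS.

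Signs turned only when 1 library was left out and only for changes that were not called. In rABS against Parental, with each library left out in turn, the log2 change ran from -0.10 to 0.11 for CMPK2, from -0.62 to 0.03 for IFITM1 and from -0.01 to 0.18 for DDX60. In shCtrl against rABS it ran from -0.14 to 0.27 for IFIT1, from -0.59 to 0.00 for BST2, from -0.03 to 0.22 for IFITM3 and from -0.19 to 0.08 for SAMD9L. In shAPE1 against shCtrl it ran from -0.39 to 0.11 for USP18. The cause was not tested.

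In shCtrl against rABS, HERC6 was also not called with upper-quartile scaling (log2 -0.30), the 1 CPM filter (-0.31) or the block (-0.33). IFI44L, not called in the report (-1.28; adjusted p = 0.0518), was called in 7 settings at -1.27 to -1.99 (adjusted p = 0.0168 to 0.0492), and IFIT5 in 2, at 0.27 and 0.39. Depth limits the rarest genes: RSAD2, BST2, IFI44L and EPSTI1 had under 20 counts in several libraries, and TRIM22 in all 12. IFI27 and IFI6 had under 20 counts in every Parental library, and OAS2 in Parental replicates 1 and 3. Single libraries were also under 20 for IFIT1 (16, Parental replicate 2), USP18 (19, Parental replicate 1) and OASL (17, rABS replicate 1). The fold changes that rest on those libraries are therefore wide.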
